A study of Drosophila melanogaster with 12 samples.

Results

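The genes for the proteins of the cytoplasmic ribosome were followed through RNA-seq of Drosophila cells treated with double-stranded RNA (dsRNA). Genes were included by name, as RpL or RpS followed by a digit or P. This rule found 92 of the 23882 features of the table, of which 54 carry the large-subunit prefix RpL and 38 the small-subunit prefix RpS. Low counts left 6 of them out of the tests: RpS28a, RpL10Aa, RpL37b, RpL22-like, RpS28-like and RpL7-like, none of which had more than 14 counts in a library. The other 86 (50 RpL and 36 RpS) passed the filter over the 12 libraries. The rule also takes in RpLP0-like and RpL24-like, whose yeast counterparts are ribosome assembly factors and not parts of the finished ribosome. It leaves out sta and Rack1, which encode small-subunit proteins under other names.

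The cells were Kc 167, a line from Drosophila embryos, and all 4 groups received dsRNA for 5 days before total RNA was extracted, so that the control carried an RNAi treatment too. The groups are dsRNA against yellow, a pigmentation gene that served as control, dsRNA against dGcn5 and Elp3, which encode histone acetyl transferases, and dsRNA against nej, the Drosophila homolog of CBP. Each group has 3 libraries of polyadenylated RNA. The comparisons ask whether loss of an acetyl transferase changes expression, and the design implies each target against yellow. The labels do not state whether replicates were separate cultures, so p-values measure the spread between these libraries.

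A ribosome holds 1 copy of most of these proteins, and a dividing cell makes them in near-equal amounts as a large part of its protein synthesis. In Drosophila the genes lie scattered over the chromosomes, share a pyrimidine-rich start of the transcript and are widely transcribed. Loss of 1 copy of many of them gives the Minute phenotype of slow growth and short bristles. Several have a second copy that is used mainly in the germline.

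Libraries held between 19102102 and 23198850 counts. Gcn5 stood at 138 ± 11.1 CPM (counts scaled to the library size; SD, n = 3) in the control and at 40.1 ± 10.3 after dsRNA against dGcn5. The counts of Elp3 and nej went against their labels. Elp3 was at 52.5 ± 6.46 CPM in the control and at 3235 ± 1178 in the libraries labelled Elp3, and nej was at 148 ± 88.2 and 1417 ± 1595. Both groups are therefore named by their label only, as libraries labelled Elp3 or nej. The paper describes a knockdown of Elp3 in Kc cells, measured by RT-qPCR, without naming these libraries. Whether the raised counts come from the cells' own transcripts was not tested, so they do not show that either gene was raised. Markers of a hemocyte-like female line were present, with median levels over the 12 libraries of 2066 CPM for Hml, 205 for srp and 239 for Sxl, and the male-specific roX1 and roX2 were below 0.34 CPM throughout. Of the germline markers, vas and nos were low (medians 0.66 and 3.86 CPM), whereas aub and bam were at 203 and 39.8. In bulk RNA, fewer cells of a type and less RNA per cell cannot be told apart.

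In control cells the ribosomal protein genes were among the most abundant transcripts. Per kb of exon, the 86 genes that passed the filter had a median of 1621 CPM per kb, beside 13.0 for all features tested. They filled 71 of the 100 highest places, and 78 of them were above 500 CPM per kb. The highest was RpL41, the shortest ribosomal protein, at 6920 ± 4335 CPM per kb (SD, n = 3), with 4352, 4483 and 11924 in the 3 control libraries. RpL21 (3867 ± 1694) and RpS18 (3208 ± 1549) followed. These SDs hold the swing that the genes share between libraries. Within each control library RpL41 was above RpL21 (3005, 2778 and 5819 CPM per kb) and RpL21 above RpS18 (2361, 2268 and 4996). The lowest of those tested, RpS10a, stood at 2.05 ± 0.82 CPM per kb. Exon length was the union of all annotated exons, which lowers the value of a gene such as RpL5 (3835 bp of exon).

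**Figure D1:**
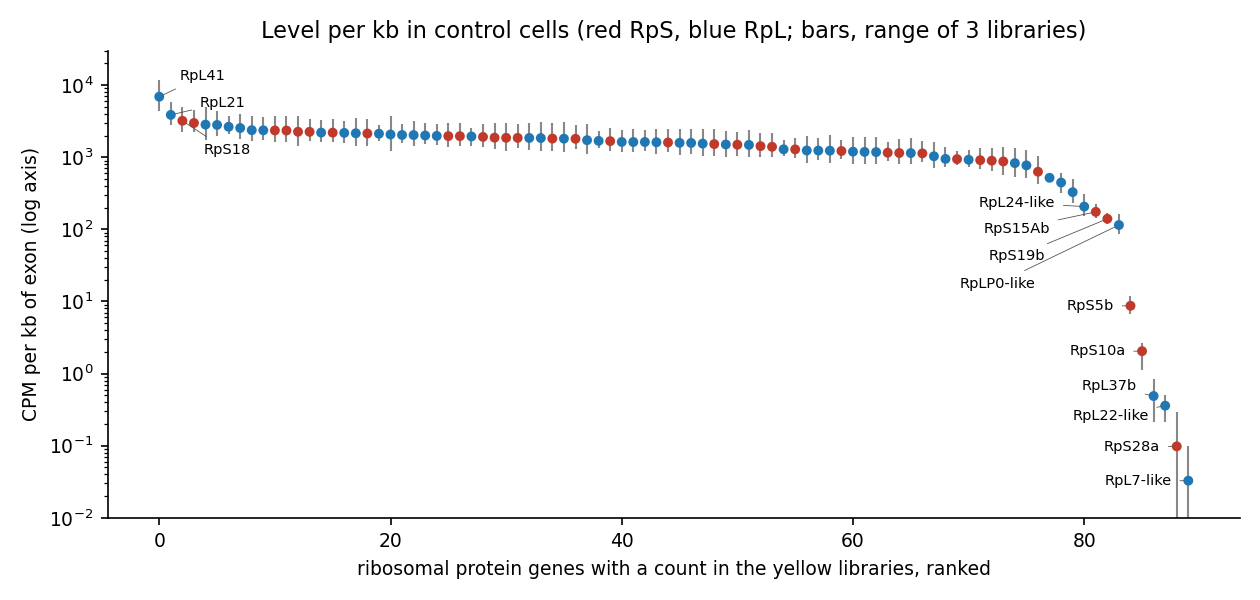
Level of each ribosomal protein gene with a count in the control cells, in CPM per kb of exon on a log axis, ranked from high to low. Points are means and bars the range of the 3 yellow libraries, with RpS genes in red and RpL genes in blue. Most genes lie near the median of 1621. The low end holds RpS5b, RpS10a and, of the genes that were not tested, RpL37b, RpL22-like, RpS28a and RpL7-like. RpL10Aa and RpS28-like had no count in these libraries and are not shown.

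The share of all counts that fell on ribosomal protein genes varied more within groups than between them. It was 9.54%, 9.57% and 18.9% in the control libraries. The 3 dGcn5 libraries had 15.6%, 17.6% and 11.5%, those labelled Elp3 20.7%, 10.4% and 9.83%, and those labelled nej 9.68%, 10.6% and 13.1%. Group means were 12.7 ± 5.38%, 14.9 ± 3.09%, 13.6 ± 6.09% and 11.1 ± 1.75% (SD, n = 3 each), and the ranges of all groups overlapped. The highest library held 2.17 times the share of the lowest. Control replicate 3 and replicate 1 of the libraries labelled Elp3 stood apart from the other libraries of their groups, and replicate 3 was the low library of the dGcn5 group. Without the 5 genes of highest count, the share still ran from 8.22% to 18.3%.

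**Figure D2:**
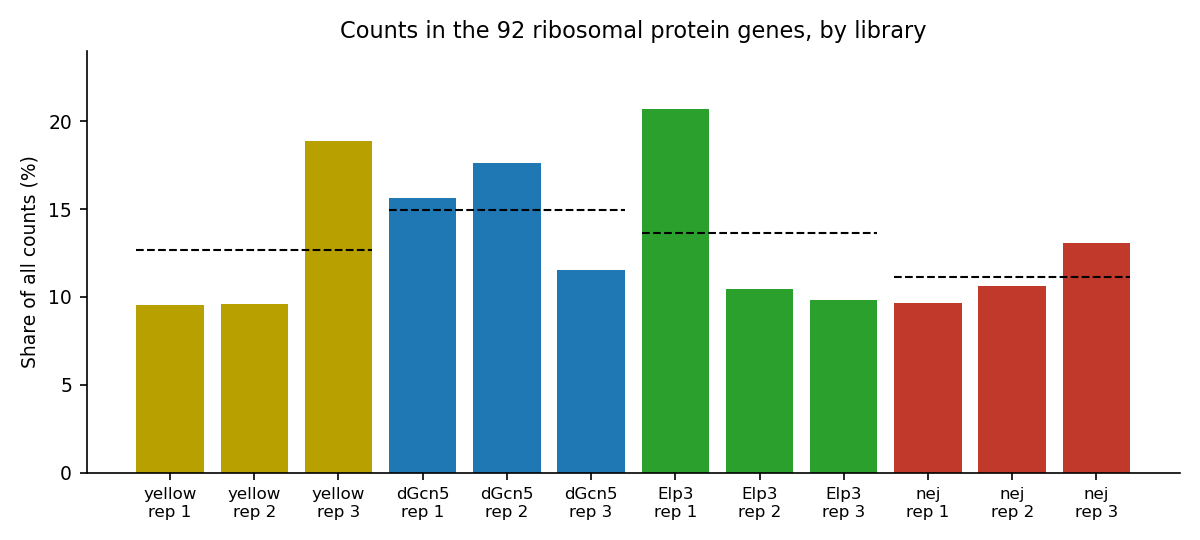
Share of all counts in the 92 ribosomal protein genes (%), one bar per library from 0, with the group mean as a dashed line. Control replicate 3 (18.9%) and Elp3 replicate 1 (20.7%) rise above the other libraries of their groups, and the groups overlap.

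The genes moved together from library to library. Values are on the log2 scale, relative to each gene's own mean over the 12 libraries. The scaling keeps the median of all features tested near 0, and it moved by 0.07. The median of the 86 genes ran from −0.46 to 0.89, a range of 1.35. By library this median was −0.42, −0.43 and 0.67 in the control, 0.29, 0.54 and −0.21 after dsRNA against dGcn5, 0.89, −0.27 and −0.46 in the libraries labelled Elp3 and −0.39, −0.21 and 0.01 in those labelled nej. All 86 genes were higher in control replicate 3 than in control replicates 1 and 2. In the libraries labelled Elp3, 84 of 86 were highest in replicate 1, and for 75 genes this was the highest of the 12 libraries. In the dGcn5 group 84 of 86 were lowest in replicate 3. The median SD of a gene over the 12 libraries was 0.497 in the family, beside 0.486 for all features tested. The median control level was 1621 CPM per kb in the family and 13.0 for all features tested. The spread was not compared at like levels.

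Both subunits took the same course: the median of RpL genes differed from that of RpS genes by −0.05 to 0.06 in every library. Taking off the mean profile of the family lowered the median SD of a gene from 0.50 to 0.11 on the log2 scale, which left 4.99% of the variance of the median gene, and 69 of 86 genes then had an SD below 0.2. The genes that kept the most spread were RpS10a (0.72), RpLP0-like (0.61), RpS5b (0.49), RpS19b (0.42), RpL38 (0.40) and RpS3A (0.34). RpS10a and RpS5b have few counts, and RpLP0-like had a larger SD after the profile was taken off than before (0.55).

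**Figure D3:**
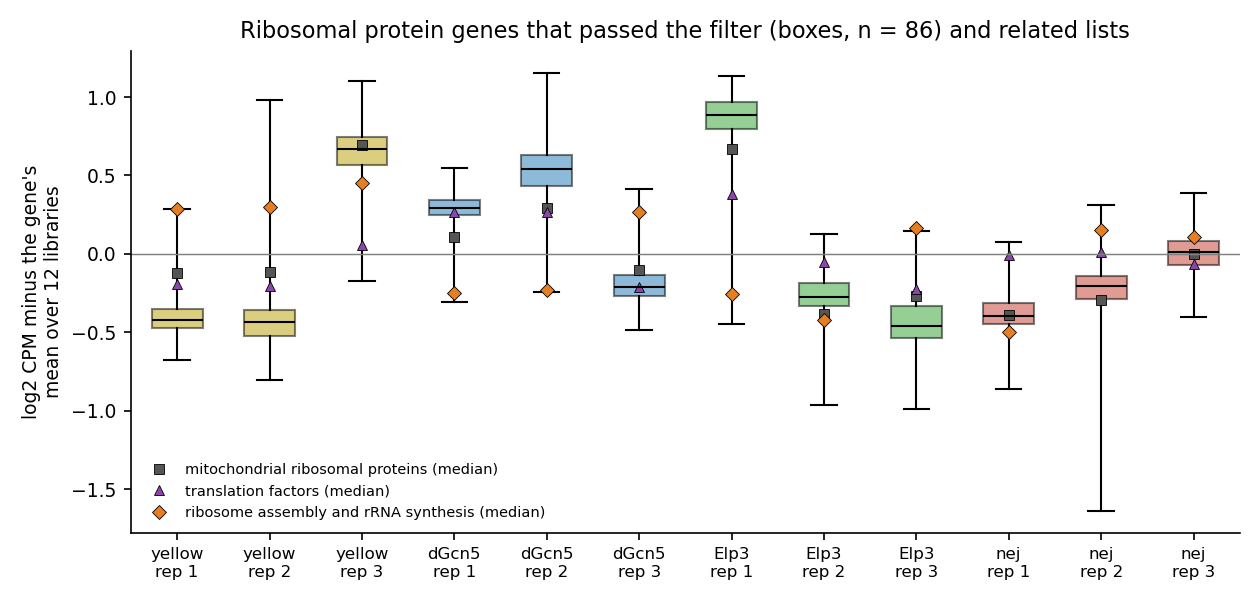
log2 CPM of the 86 ribosomal protein genes minus each gene's mean over the 12 libraries; boxes span the quartiles with the median as a line, whiskers reach the lowest and highest gene, and symbols give the medians of mitochondrial ribosomal proteins, translation factors and ribosome assembly genes. The whole box moves with the library, between medians of −0.46 and 0.89.

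The same libraries differed in how level depended on gene length. Over all other features tested, the slope of the log2 deviation on log2 exon length was −0.34 in Elp3 replicate 1, −0.33 in control replicate 3, −0.21 and −0.13 in dGcn5 replicates 2 and 1, −0.02 in nej replicate 3 and 0.05 in dGcn5 replicate 3. In this order these are also the 6 libraries with the highest share of ribosomal protein counts. The slopes of the others were between 0.13 and 0.23. Ribosomal protein genes are short, with a median exon length of 909.5 bp beside 2076.5 bp for all features tested. The genes of mitochondrial ribosomal proteins, with a median of 783 bp, had a range of 1.08 in their median. After a smooth trend with length was removed in each library, the range of the median was 0.56 for the cytoplasmic genes and 0.24 for the mitochondrial ones. The part of RNA quality or library preparation in these differences was not tested.

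No ribosomal protein gene passed the test in any comparison against yellow. In dGcn5-depleted cells 75 genes were higher and 11 lower, with a median log2 fold change of 0.21 beside −0.03 for all features tested. Between the libraries labelled Elp3 and the control, 74 were higher and 12 lower (median 0.10, all features −0.02). In the libraries labelled nej, 8 were higher and 78 lower (median −0.23, all features 0.01). The 3 comparisons share the control libraries. With p-values of edgeR's quasi-likelihood test adjusted over all features by Benjamini and Hochberg, the smallest adjusted p of a ribosomal protein gene was 0.984 for dGcn5, 0.999965 for Elp3 and 0.968 for nej. Of all features tested, 0% were called for dGcn5, 0.0101% for Elp3, which is the Elp3 gene alone, and 0% for nej. Gcn5, the target of the dsRNA, was thus not called either. Its log2 fold change for dGcn5 was −1.78, with an unadjusted p of 0.00013 and an adjusted p of 0.42 in the same test. In the test for any difference between the 4 groups 0 of 86 genes were called, beside 0.00965% of features.

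Without adjustment, 1 of 86 ribosomal protein genes had p under 0.05 for dGcn5, beside 3.67% of all features, and 0 had it for Elp3 (3.86% of features), nej (3.65%) and the 4 groups (3.6%). DESeq2, without that filter, tested 90, 91 and 91 ribosomal protein genes in the 3 comparisons and called 0 of them. In its tests 2, 0 and 1 had an unadjusted p under 0.05 (2.22%, 0% and 1.10%). Of all features, 3.40%, 3.66% and 3.49% had it. In CPM, the values of the groups did not overlap for 2 genes in the dGcn5 comparison (RpS3A and RpL38, beside 8.15% of features), for 0 with Elp3 (8.62%) and for 1 with nej (RpS5b, 9.83%). These shares lie below the background.

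The intervals were wide. The 95% confidence interval of the log2 fold change included 0 for 85 of 86 genes in the dGcn5 comparison and for all 86 in the others, with a median half-width of 0.90, 1.09 and 0.83. It lay within −1 and 1 for 17, 7 and 29 genes, so that for most of them a change of that size was within the interval. The median of the family depended on single libraries. For dGcn5 it stayed above 0 with any 1 library left out, between 0.0046 without control replicate 1 and 0.72 without control replicate 3. For Elp3 it was 0.58 without control replicate 3, −0.10 and −0.09 without control replicates 1 and 2, and −0.37 without replicate 1 of the libraries labelled Elp3. For nej it turned to 0.24 without control replicate 3.

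**Figure D4:**
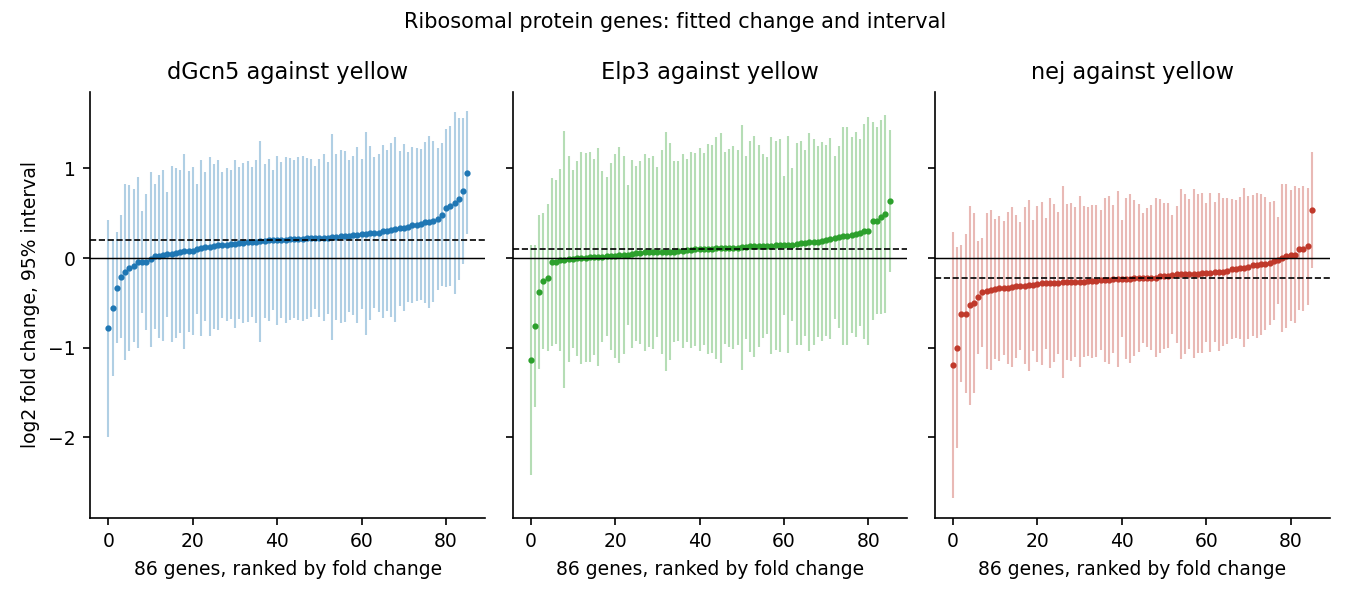
Fitted log2 fold change against yellow of the 86 ribosomal protein genes in each comparison (points, ranked), with 95% confidence intervals as vertical lines and the median as a dashed line. The curves are flat around medians of 0.21, 0.10 and −0.23, and all intervals but that of RpS3A in the dGcn5 comparison include 0.

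Because the family moved as a block, each gene was also set against the mean profile of the family. A relative value of 0 means that a gene followed the other ribosomal protein genes in that library. For dGcn5 the groups did not overlap on this scale for 12 genes (14%) that were higher and 11 (12.8%) that were lower. The shares of all features were 1.97% and 4.13%. For Elp3 there were 4 higher (4.65%) and 0 lower, beside 3.21% and 2.24% of features. For nej there were 10 (11.6%) and 5 (5.81%), beside 2.97% and 3.56%. Features outside the family carry the swing of the family on this scale by construction, which widens their spread, so that the background is not a like-for-like measure. With 3 libraries against 3, an exact rank test cannot give a p below 0.1. A gene named below as without overlap is therefore a description and not a call.

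Among these genes RpS3A, a small-subunit protein, had the largest increase over the control on the relative scale in each comparison. RpS10a was lower by more than this (−0.90, −1.06 and −0.96), as were RpLP0-like for dGcn5 and Elp3 (−0.78 and −0.84) and RpS5b for nej (−0.90). RpS3A lies on chromosome 4 (BDGP6.32, positions 65225 to 67207), the small and largely heterochromatic chromosome, and is the only member there. RpS3A stood at 1130, 1038 and 1646 CPM in the control libraries, 2442, 2961 and 1982 in the dGcn5 libraries, 2871, 1640 and 1552 in those labelled Elp3 and 1569, 1749 and 2197 in those labelled nej. All dGcn5 libraries were above all control libraries, and the other groups overlapped with control replicate 3. Its log2 fold change was 0.95 ± 0.29 (SE) for dGcn5, with a 95% interval of 0.27 to 1.64 and an unadjusted p of 0.0128, and the adjusted p of edgeR's quasi-likelihood test was 0.98. It was 0.63 ± 0.34 for Elp3 and 0.54 ± 0.28 for nej, with intervals that included 0.

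Relative to the family, RpS3A was at −0.28, −0.41 and −0.78 in the control, 0.15, 0.19 and 0.33 in the dGcn5 libraries, −0.19, 0.12 and 0.23 in those labelled Elp3 and 0.18, 0.19 and 0.27 in those labelled nej. Every library of the other groups was above every control library, with mean differences of 0.71, 0.54 and 0.70. The lowest value is that of control replicate 3, in which most genes of the family were high. Over the fits that left out 1 library, its log2 fold change for dGcn5 was between 0.83 and 1.23. In the test of the 4 groups RpS3A had the smallest p of the family (0.058, adjusted p = 0.999862 by edgeR's quasi-likelihood test).

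RpL15, RpL5 and RpL38, large-subunit proteins whose genes lie in or near pericentromeric heterochromatin, were looked at with RpS3A for their position, which was chosen after values were seen. RpL15 (3L, positions 27267255 to 27268445) and RpL5 (2L, 22532279 to 22536884) are the 2 members within 1 Mb of the centromeric end of an arm, and RpL38 (2R, 4515388 to 4516458) is 4.52 Mb from it. RpL21 (1.23 Mb), RpS10b (3.94 Mb) and RpL30 (4.47 Mb) lie nearer to such an end than RpL38, and RpL10 is at 4.99 Mb. Relative to the family, RpL21 differed from the control by 0.01, −0.10 and −0.10 for dGcn5, Elp3 and nej. RpS10b differed by −0.03, −0.02 and −0.12, RpL30 by 0.14, 0.19 and 0.11, and RpL10 by −0.05, −0.11 and −0.01. RpL15 stood at 1562, 1544 and 3016 CPM in the control libraries, 3316, 4213 and 2167 in the dGcn5 libraries, 4039, 2101 and 1522 in those labelled Elp3 and 1907, 1964 and 2394 in those labelled nej. All groups overlapped with the control in CPM. Relative to the family, RpL15 was at −0.18, −0.20 and −0.27 in the control and at 0.22, 0.33 and 0.09 in the dGcn5 libraries. It was higher than the control without overlap in each comparison, by 0.43, 0.18 and 0.25 on average, although replicate 3 of the libraries labelled Elp3, at −0.16, was close to the highest control.

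RpL38, which in mice is needed for the translation of Hox mRNAs, did not follow the family in control replicate 3. It stood at 534, 502 and 542 CPM in the control, 706, 1361 and 578 in the dGcn5 libraries, 1197, 667 and 308 in those labelled Elp3 and 493, 570 and 482 in those labelled nej. The log2 fold change for dGcn5 was 0.75 ± 0.35 (SE; unadjusted p = 0.066, adjusted p = 0.98 by edgeR's quasi-likelihood test), and without dGcn5 replicate 2 it was 0.33. RpL5 binds the 5S rRNA together with RpL11. Its log2 fold changes were 0.43 ± 0.34, 0.23 ± 0.39 and −0.03 ± 0.28, and its relative values overlapped between groups in each comparison. Over all features of chromosome 4 the median log2 fold change was −0.09 for dGcn5, −0.16 for Elp3 and −0.05 for nej, and over those within 1 Mb of a centromeric end it was 0.04, 0.07 and 0.20. For the 8 ribosomal protein genes on chromosome 4 or within 5 Mb of a centromeric end it was 0.38, 0.25 and −0.10, and for the 78 elsewhere 0.20, 0.10 and −0.23.

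**Figure D5:**
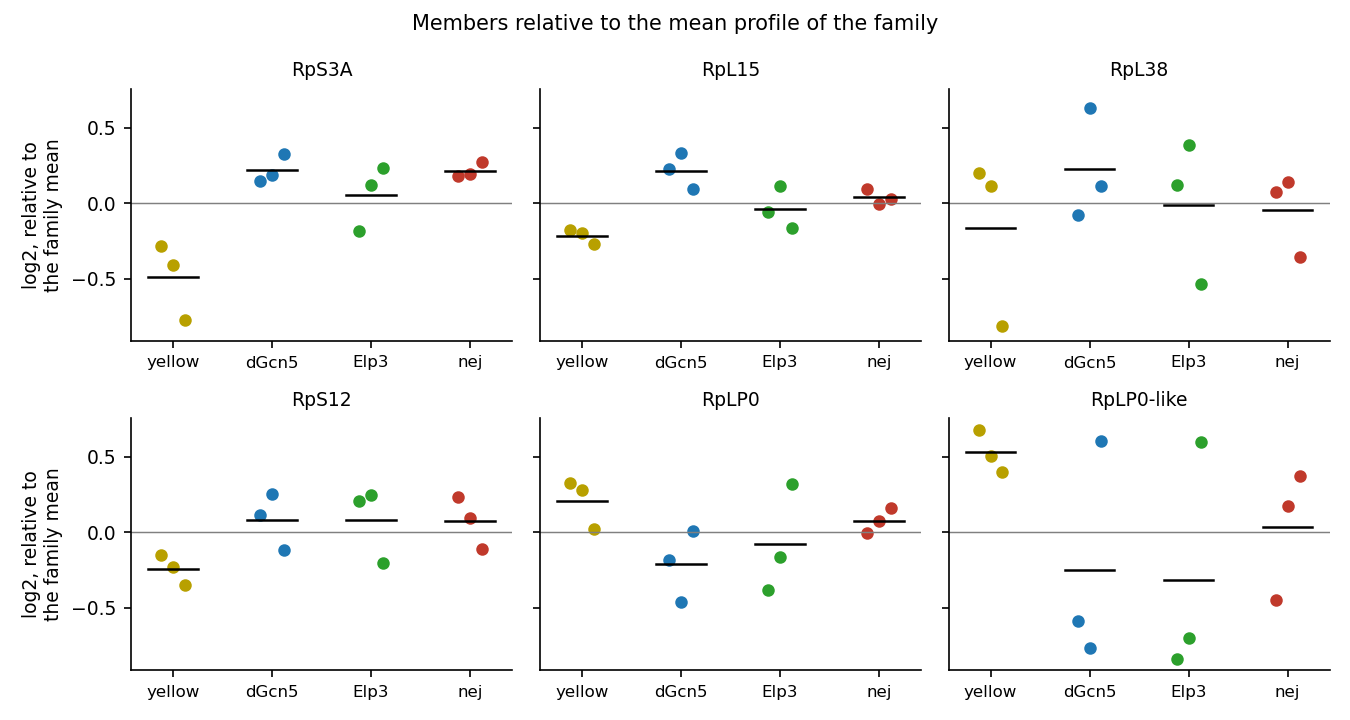
log2 CPM of 6 ribosomal protein genes relative to the mean profile of the family, one point per library and a line for the group mean. RpS3A is at −0.28 or below in the 3 yellow libraries and at −0.19 or above in the others, whereas RpLP0-like falls into high and low libraries within groups.

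The stalk proteins, which recruit elongation factors to the ribosome, did not move alike. RpLP0 is the base of the stalk. Relative to the family it was at −0.18, −0.46 and 0.01 in the dGcn5 libraries and 0.33, 0.28 and 0.02 in the control. The difference was −0.42 without overlap, although the highest dGcn5 value (0.01) was close to the lowest control value (0.02). In CPM RpLP0 stood at 1855, 1794 and 3081 in the control and 2090, 2033 and 1713 after dsRNA against dGcn5, and the groups overlapped. RpLP1 differed by −0.15 on the relative scale, also without overlap. RpLP2 kept an SD of 0.26 after the mean profile was taken off, and its groups overlapped.

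RpS6, the target of the growth-regulated S6 kinase, was lower than the control relative to the family for dGcn5 (−0.18) and higher for nej (0.23), without overlap in both. The relative values were −0.02, −0.04 and 0.00 in the control, −0.06, −0.25 and −0.29 in the dGcn5 libraries and 0.16, 0.27 and 0.20 in those labelled nej. S6k itself had log2 fold changes of −0.08, 0.24 and −0.07. RpS12, a small-subunit protein that in Drosophila takes part in the competition between cells of unequal ribosome supply, was higher relative to the family by 0.32 in each comparison, without overlap for dGcn5 and nej. In CPM it ran from 587 to 1925, and its control values of 635, 601 and 1131 overlapped with those of all other groups.

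RpS27A and RpL40 are made as fusions with ubiquitin. RpS27A was higher than the control relative to the family by 0.16, 0.08 and 0.14, without overlap in the 3 comparisons, and RpL40 overlapped in each. Among the proteins at the mRNA entry, RpS9 was among the 3 highest for Elp3, with a log2 fold change of 0.46 ± 0.46, and RpS2, RpS3 and RpS9 overlapped with the control in each comparison. RpL3, which reaches the catalytic centre, was among the 3 highest for nej at 0.13 ± 0.28. Among other genes chosen for their role, RpL11 was higher for dGcn5 relative to the family by 0.19 without overlap, and RpL4, RpL10, RpL14, RpS13 and RpL41 overlapped with the control in each comparison.

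RpLP0-like did not take the course of the family. Relative to its own mean it was at 0.28, 0.11 and 1.04 in the control, −0.30, −0.24 and 0.41 in the dGcn5 libraries, 0.02, −0.96 and 0.14 in those labelled Elp3 and −0.83, −0.06 and 0.39 in those labelled nej. The median of 21 genes for ribosome assembly and rRNA synthesis was 0.29, 0.30 and 0.45, then −0.25, −0.23 and 0.27, then −0.25, −0.42 and 0.16, and −0.50, 0.15 and 0.11 in the same order. RpLP0-like and this median were both above 0 in all control libraries and in replicate 3 of the other groups, and both below 0 in dGcn5 replicates 1 and 2, Elp3 replicate 2 and nej replicate 1. Their signs differed in Elp3 replicate 1 and nej replicate 2. Its log2 fold changes were −0.55 ± 0.33, −0.76 ± 0.38 and −0.62 ± 0.38, none of which passed the test, and it shares 39 bp of exon with Jra on the other strand. RpL24-like took the course of the family, at −0.60, −0.57 and 0.39 in the control and 1.02 in Elp3 replicate 1.

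Second copies of ribosomal protein genes differed widely in how much of a pair they made up. Shares are of the summed level per kb, as the median over the 12 libraries. RpS10b made up 99.9% of its pair with RpS10a, RpS28b 99.995% of its pair with RpS28a, RpL10Ab all of its pair with RpL10Aa, which had no count in any library, and RpL34b 72.2% of its pair with RpL34a. RpS14a and RpS14b, neighbours on the X chromosome, were near balance (45.5% RpS14b). The germline copies RpS19b and RpS5b made up 8.36% and 0.50% of their pairs, RpS15Ab 9.56%, and RpL22-like 0.035%, with at most 14 counts in a library. RpL37b had 22 counts over the 12 libraries and RpL7-like 7. Reads from near-identical copies cannot be assigned with certainty, so these shares are uncertain where copies are alike.

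RpL24-like made up 17.8 ± 0.35% of its pair with RpL24 in the control (SD, n = 3) and 22.6 ± 1.42% in the dGcn5 libraries. In the libraries labelled Elp3 and nej it was 21.2 ± 2.27% and 21.6 ± 2.84%. The highest control value was 18.2%, and the lowest values of the other groups were 21.0%, 18.8% and 19.1%, so that no group overlapped with the control they share. Relative to the family, RpL24-like overlapped with the control for Elp3. The share of RpL37b, with 22 counts in all, did not overlap either. Its lowest control value was 0.0256%, and the highest values of the other groups were 0.0255%, 0.0135% and 0.0183%. No background over all features was computed for such shares. RpS5b stood at 6.39, 7.0 and 11.5 CPM in the control and at 4.88, 2.08 and 5.41 in the libraries labelled nej. These groups did not overlap, with a log2 fold change of −0.998 ± 0.480 (unadjusted p = 0.073, adjusted p = 0.97 by edgeR's quasi-likelihood test). RpS10a, at 0.34 to 1.59 CPM over all libraries, had the lowest log2 fold change in each comparison (−0.79, −1.14 and −1.20), and its intervals included 0. RpS19b was among the 3 lowest in each, at −0.33, −0.38 and −0.62.

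The other genes of the pathway were taken from lists chosen with earlier results of these data known. Of the 21 genes for ribosome assembly and rRNA synthesis, 1 was higher and 20 were lower in each comparison, with medians of −0.46, −0.51 and −0.40, and 0 were called. Without adjustment, 4 of 21 had p under 0.05 for dGcn5 by edgeR's quasi-likelihood test (NHP2, Nop60B, nop5 and mbm), beside 3.67% of all features. For Elp3 3 had it (Nop56, NHP2 and mbm), beside 3.86%, and 0 for nej, beside 3.65%. All were lower than the control. The 3 comparisons share the control libraries, in which the median of this list, relative to each gene's own mean, was 0.29, 0.30 and 0.45. Of 36 translation factors, 25, 21 and 18 were higher (medians 0.20, 0.17 and 0.01). Of 72 mitochondrial ribosomal protein genes, 20, 15 and 1 were higher (medians −0.08, −0.14 and −0.39). None of them was called. Without adjustment eIF3c, a translation initiation factor, had p under 0.05 for Elp3, higher than the control, and mRpS21 and mRpS14 had it for nej, lower than the control. The small-subunit genes sta and Rack1 had log2 fold changes of 0.22 and 0.44 for dGcn5, 0.22 and 0.34 for Elp3 and −0.18 and 0.19 for nej, and 0 passed the test.

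Of 13 regulators of ribosomal protein genes and of translation, 3, 8 and 9 were higher (medians −0.13, 0.19 and 0.16), and 0 were called. In CPM, Myc, a transcription factor that raises ribosome production, and Tor, the kinase that couples growth to nutrients, were low in the libraries with the highest share of ribosomal protein counts. In Elp3 replicate 1 and control replicate 3 raptor was low too (7.01 and 6.31 CPM). Others of the list were not: Rheb stood at 116 and 95.7 CPM there, beside 61.6 and 59.3 in control replicates 1 and 2. Thor and Irbp18 were highest in Elp3 replicate 1 (393 and 134 CPM). Myc stood at 232, 232 and 41.7 CPM in the control, 86.1, 62.1 and 171 in the dGcn5 libraries, 29.4, 141 and 180 in those labelled Elp3 and 150, 182 and 127 in those labelled nej. Its lowest libraries were Elp3 replicate 1 and control replicate 3, the highest for ribosomal protein counts. Myc has 9170 bp and Tor 7987 bp of exon, and removing the trend with length took the range of their log2 values from 2.98 to 1.74 and from 1.63 to 0.63. After that step Myc was still lowest in Elp3 replicate 1 (−1.12) and control replicate 3 (−0.59), whereas Tor was at 0.06 and −0.10 in these libraries and lowest in nej replicate 3 (−0.40).

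Other features share exon bases with 32 of the ribosomal protein genes, and the strand setting of the counting is not given in the sources used here, so counts of overlapping and antisense genes cannot be separated with certainty. RpS9 shares 512 bp and RpL3 412 bp with antisense RNAs whose median counts were 25 and 3 per library. The spans of 29 of these genes hold 75 of the 287 snoRNAs of the table, small RNAs that guide the modification of rRNA, with 14 of them in RpS5a and 7 in RpS7.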

How the data were processed

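RNA-seq of 12 libraries of Kc 167 cells was analysed, 3 for each dsRNA group, grouped by their labels. According to the methods, the authors removed rRNA reads, aligned the rest to BDGP6.32 with STAR and counted reads on exons with featureCounts. The values they deposited are raw counts per feature; coordinates and exon lengths come from the same table. Counts were tested in R 4.3.3 with edgeR 4.0.16 and its quasi-likelihood test (TMM, edgeR's filter with a minimum of 10 counts) on the 6 libraries of each comparison, with Benjamini-Hochberg adjustment over all features tested and calls at an adjusted p under 0.05. Values per library are TMM-scaled CPM, log2 values used a prior count of 2, and the length trend is a loess curve with a span of 0.3. Intervals are 95% and come from the fitted model. Depth is given as total counts; intervals from counts alone would cover counting error only.

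Named genes were those of given roles, paralog pairs, and the extremes by fold change, level and spread. The members and lists were chosen with earlier results of these data known. Alternatives used DESeq2 1.42.0, other filters and scalings, the length trend, the replicate number as a block and each library left out. The scripts were tested on simulated counts. Promoter motifs and sequences were not analysed here. Nop140, Polr1A, Polr1B and max were not matched by name in their lists.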

Additional observations from a re-analysis of the deposited data

How the results depend on the processing

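Under every alternative other than those named here as chosen after seeing the data, 0 ribosomal protein genes were called. DESeq2 called 48, 24 and 38 features for dGcn5, Elp3 and nej and 86 in its test of the 4 groups, beside 0, 1, 0 and 1 in edgeR, and 0 ribosomal protein genes among them. Over the fits that left out 1 library, the median log2 fold change of the family ran from 0.0046 to 0.72 for dGcn5, from −0.37 to 0.58 for Elp3 and from −0.43 to 0.24 for nej. Without control replicate 3, 54 of 86 genes (62.8%) had an unadjusted p under 0.05 for dGcn5, beside 17.3% of all features in that fit, and 0 of either were called. Under the same settings the log2 fold change for Elp3 ran from −0.10 to 0.78 for RpS9, −0.051 to 0.85 for RpS12, −0.15 to 0.68 for RpL15 and −0.11 to 0.51 for RpL5. For nej it ran from −0.064 to 0.45 for RpS12, −0.0068 to 0.39 for RpL3, −0.14 to 0.43 for RpL15 and −0.18 to 0.24 for RpL5. The value of RpL5 for nej was 0.0074 with the replicate block and 0.11 when scaled to the summed counts of the family, an alternative chosen after seeing the data. It was −0.29 with the length trend removed and −0.17 with both the length trend removed and the block. The cause was not tested. With the length trend removed the family median was 0.18, 0.15 and 0.10, and 61 of 86 genes were then higher for nej.

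In their deviations from group means, same-numbered libraries correlated between −0.64 and 0.42 for replicate 1. For replicate 2 the range was 0.19 to 0.72, and for replicate 3 −0.10 to 0.85. The main tests did not take the numbers to pair the samples. With the replicate number as a block the family median was 0.29, 0.11 and −0.13, and 0 genes of the family were called. Of all features 0, 0 and 2 were called, beside 0, 1 and 0 without the block. The shares of features with an unadjusted p under 0.05 in edgeR were 3.56%, 3.28% and 11.5%, beside 3.67%, 3.86% and 3.65%. Removing the length trend and leaving out a library together, also chosen after seeing the data, called 4 genes for dGcn5 without dGcn5 replicate 3 (RpS3A, RpS12 and RpL24-like higher, RpLP0-like lower, smallest adjusted p = 0.032 by edgeR) and RpLP0-like for Elp3 without Elp3 replicate 3 (adjusted p = 0.030 by edgeR), of 430 and 429 features called. These calls are 4.60% and 1.16% of the genes of the family, beside 4.26% and 4.23% of all features, shares near and below the background. Depth was not varied.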
